A study of Mus musculus with 8 samples.

Results

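Chemokines are small secreted proteins that draw leukocytes along a gradient, and their receptors are G protein-coupled receptors on those leukocytes. The CC and CXC classes are named for the spacing of conserved cysteines, and 2 chemokines of the set, Cxcl16 and Cx3cl1, are made as membrane-bound proteins that can be shed. In fatty liver disease the ligand Ccl2 and its receptor Ccr2 are known for the entry of blood monocytes, while in the colon Ccl28 is known for homing of IgA plasma cells and Ccl20 for drawing Ccr6-bearing cells to lymphoid follicles.

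The genes described were the protein-coding rows of the expression table whose mouse gene symbol begins with Ccl, Cxcl, Cx3cl, Xcl, Ccr, Cx3cr or Cxcr followed by a digit. This rule gave 55 of 45777 rows, 38 ligands and 17 receptors. Of the 55, 37 (30 ligands and 7 receptors) reached 1 FPKM in at least 1 library and 18 did not. FPKM counts fragments per kilobase of transcript, scaled to all fragments mapped in a library, so levels of different genes can be compared on it.

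RNA of mouse liver and colon was sequenced in 4 groups, which were animals with non-alcoholic steatohepatitis (NASH) given extracellular vesicles (EVs) of bovine colostrum at a low dose, NASH animals given them at a high dose, NASH animals and control animals. The labels of the EV groups do not name NASH, and the series design places the vesicles in the NASH model. The sources used here do not give the doses, strain, sex, age, diet or any pooling of animals. Each group had 1 library per tissue, so each difference below is between 2 libraries, carries no replicate error and has no test.

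The liver libraries had the hepatocyte marker Alb at 15530 FPKM or more, and the colon libraries had the epithelial marker Epcam at 591 FPKM or more. The colon NASH library also held seminal vesicle transcripts (5 genes summing to 14370 FPKM, 4.21% of its protein-coding FPKM), which were listed at 0 in the other 7 libraries. The colon EV high dose library held pancreatic transcripts (5 genes, 2058 FPKM, 0.572%), which summed to 41.9 FPKM in the colon control library. The part of this foreign tissue in the colon results was not tested. Kupffer cell markers, 5 genes of the resident liver macrophage, summed to between 426 and 449 FPKM in the 3 NASH-model livers and to 83.0 FPKM in the control liver. Of 8 T cell markers 0 reached 1 FPKM in any liver library, and of 8 B cell markers 1 did.

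**Figure D1:**
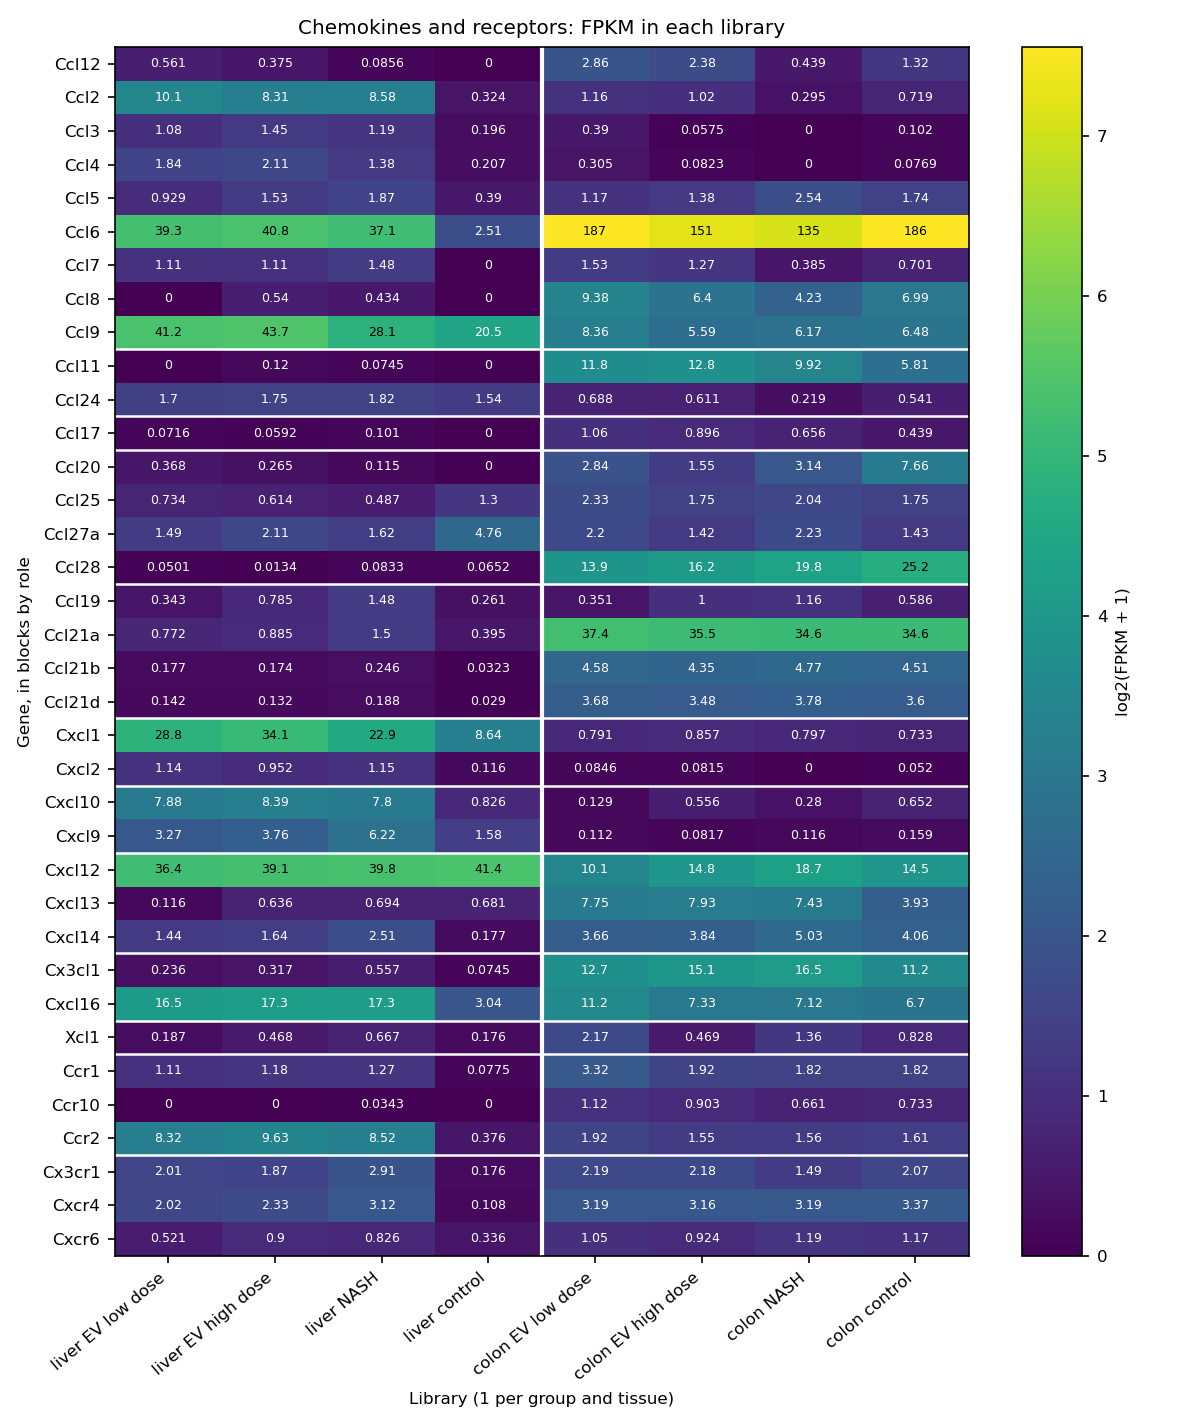
FPKM of the genes described that reached 1 FPKM, in rows by role, in the 8 libraries, with colour on a log2(FPKM + 1) scale and the FPKM printed in each cell. Ccl6 was the brightest row in colon at 135 to 187 FPKM, and Ccl2 and Ccr2 were bright in the 3 NASH-model livers at 8.31 to 10.1 FPKM.

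The order of chemokine levels differed between livers and colons, although 16 of the genes described reached 1 FPKM in a library of each tissue. In liver the ligands with the highest levels were Ccl9, Ccl6, Cxcl12, Cxcl1 and Cxcl16 in both EV libraries and, in another order, in the NASH library. The control liver had the same genes at the top except that Ccl27a stood in the place of Ccl6. In colon Ccl6 alone held between 46.6% and 55.8% of the summed ligand FPKM, followed by Ccl21a and Ccl28 in each of the 4 libraries. Summed over the 38 ligands, the level was 199 FPKM in the EV low dose liver, 214 in the EV high dose liver, 188 in the NASH liver and 89.4 in the control liver. Summed over the 17 receptors, it was 24.4, 27.2 and 27.8 FPKM in the EV low dose, EV high dose and NASH livers and 2.79 FPKM in the control liver. In bulk tissue, more cells of a type and more RNA per cell cannot be told apart.

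Within a tissue, libraries were set against each other as log2 ratios of (FPKM + 1), a scale that makes the ratios of low genes too small, and 2-fold or more was counted as apart. The NASH liver stood 0.55 log2 units above the control liver at the median gene, and liver log2 ratios are therefore centred on that gene. Only genes at 1 FPKM or more in some library of a tissue were used there. This left 24 chemokine and receptor genes in liver and 29 in colon. Of the 24 kept in liver, 14 were under 1 FPKM in the control library and so were kept only through the NASH-model libraries.

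In the NASH liver 9 of these 24 genes were 2-fold or more higher than in the control liver (37.5%), against 7.21% of the 12866 genes kept and 7.76% of the protein-coding ones. They included the ligands Ccl2, Ccl6, Cxcl10, Cxcl14 and Cxcl16, and the receptors Ccr2, Cx3cr1 and Cxcr4. Of these, Ccl2, Cxcl10, Cxcl14, Ccr2, Cx3cr1 and Cxcr4 were under 1 FPKM in the control liver and so were kept only through the NASH-model libraries. The background shares are not limited to genes kept in that way, so they are not a like-for-like measure. Ccl25 and Ccl27a were 2-fold or more lower (8.33%, against 7.66% of all genes kept and 6.26% of protein-coding ones, so the share of lower genes was near the background). The median of the 24 log2 ratios was 0.64, and the median over protein-coding genes was 0.03. As deposited, without centring on the median gene, 14 were higher and 1 lower, where 20.5% and 3.23% of all genes were.

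Ccl2, the main attractant of monocytes, was at 10.1 FPKM in the EV low dose liver, 8.31 in the EV high dose liver, 8.58 in the NASH liver and 0.324 in the control liver. The 3 NASH-model livers were close to one another and far above control, with a log2 ratio of NASH over control of 2.30. Ccr2, its receptor on monocytes, was at 8.32, 9.63 and 8.52 FPKM in the EV low dose, EV high dose and NASH livers and at 0.376 FPKM in the control liver (log2 ratio of NASH over control 2.24). Ligand and receptor stood at like levels in each NASH-model liver. Ccl7 and Ccl12, further Ccr2 ligands encoded beside Ccl2, stayed low, with Ccl7 between 1.11 and 1.48 FPKM in the NASH-model livers and listed at 0 in control, and Ccl12 at 0.561 FPKM or less.

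Ccl6 and Ccl9 are macrophage-derived ligands of Ccr1 known in mouse, and they lie next to each other on chromosome 11. Ccl6 was at 39.3 FPKM in the EV low dose liver, 40.8 in the EV high dose liver, 37.1 in the NASH liver and 2.51 in the control liver, a log2 ratio of NASH over control of 2.89. It had the largest of the 24 ratios. Ccl9 was already high in the control liver at 20.5 FPKM and stood at 41.2, 43.7 and 28.1 FPKM in the EV low dose, EV high dose and NASH livers. Its log2 ratio of NASH over control was -0.11 relative to the median gene and 0.44 as deposited, so the neighbours differed in size and the direction of Ccl9 hung on the scaling. Ccr1 itself was low, at 1.27 FPKM in the NASH liver and 0.0775 in the control liver.

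Ccl3, Ccl4 and Ccl5, attractants of monocytes and T cells, were low, between 0.929 and 2.11 FPKM in the NASH-model livers and between 0.196 and 0.390 FPKM in control. Ccl3 and Ccl4 overlap in the annotation, so their reads may not be fully apart.

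Cx3cr1, a receptor of monocytes and macrophages, was at 2.01, 1.87 and 2.91 FPKM in the EV low dose, EV high dose and NASH livers and at 0.176 FPKM in the control liver (log2 ratio of NASH over control 1.18). Its ligand Cx3cl1 stayed at 0.557 FPKM or less in liver. Cxcr4, a receptor for Cxcl12 on most leukocytes, was at 2.02, 2.33 and 3.12 FPKM in the same 3 livers and at 0.108 FPKM in control (log2 ratio 1.34). Cxcl12, made by stromal and endothelial cells, differed little, with 36.4, 39.1 and 39.8 FPKM in the NASH-model livers and 41.4 in control. Its log2 ratio of NASH over control was -0.61 relative to the median gene, -0.05 as deposited and 0.16 with libraries scaled to the same protein-coding sum.

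Several receptors were scarce in liver. Cxcr6, the receptor for Cxcl16 on T and NK cells, was at most 0.900 FPKM, and Cxcr3, the receptor for Cxcl9 and Cxcl10 on activated T cells, at most 0.659 FPKM. Cxcr6 lies inside Fyco1, at 8.44 FPKM in the NASH liver and 6.59 in control, so their reads may not be fully apart. Ccr4, Ccr6, Ccr8, Ccr10 and Cxcr5, which mark lymphocyte subsets, stood at 0.0753 FPKM or less in every liver library. Cxcl16 was at 16.5, 17.3 and 17.3 FPKM in the EV low dose, EV high dose and NASH livers and at 3.04 FPKM in the control liver (log2 ratio of NASH over control 1.63), far above its receptor.

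Leukocyte markers differed between the same libraries. Ptprc, the pan-leukocyte gene, was at 15.1, 18.3 and 15.1 FPKM in the EV low dose, EV high dose and NASH livers and at 2.09 FPKM in control (log2 ratio of NASH over control 1.83). Of 8 macrophage markers 7 were 2-fold or more higher in the NASH liver, where 7.21% of all genes kept were, with a median log2 ratio of 1.59, and their summed level was between 359 and 435 FPKM in the NASH-model livers and 68.0 FPKM in control. Of 5 Kupffer cell markers 4 were higher (median 1.11), and of 6 kept neutrophil markers 5 (median 1.31). Among these neutrophil markers Camp and Ngp reached 1 FPKM only in the NASH liver. The higher markers Cd14, Itgam and Ly6c2 of macrophages and Csf3r of neutrophils were also under 1 FPKM in the control liver. They were kept only through the NASH-model libraries, so the share of all genes is not a like-for-like measure. Outside the leukocytes, 3 of 7 stromal cell markers (median 0.90) and 2 of 3 kept smooth muscle markers (median 1.38) were higher. Of these, Col1a1, Acta2 and Tagln were likewise under 1 FPKM in the control liver. Of 6 hepatocyte markers 3 were 2-fold or more lower (median -1.08), where 7.66% of all genes kept were lower. The part of these cells in the chemokine ratios was not tested.

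Cxcl10, an interferon-induced attractant of activated T cells, was at 7.88 FPKM in the EV low dose liver, 8.39 in the EV high dose liver, 7.80 in the NASH liver and 0.826 in the control liver (log2 ratio of NASH over control 1.72). The 3 NASH-model livers lay within 1 FPKM of one another. Cxcl10 lies inside Art3 in the annotation, at 1.67 FPKM in the NASH liver and 1.12 in control, so their reads may not be fully apart. Cxcl9, induced mainly by interferon gamma, was at 3.27, 3.76 and 6.22 FPKM in the EV low dose, EV high dose and NASH livers and at 1.58 FPKM in control (log2 ratio of NASH over control 0.93, or 1.48 as deposited). Unlike Cxcl10 it was lower in both EV livers than in the NASH liver, with log2 ratios of -0.62 and -0.47, both inside 2-fold.

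The promoter of Cxcl10 is shown since it held 2 of the 3 motifs searched for, all of them tied to inflammatory induction. Windows of 250 bases before to 50 after the start site were taken from RefSeq (GRCm38.p6) and were found for 41 of the 55 genes. In chr5:92348840-92349139 on the minus strand, capitals mark, in order, the interferon-stimulated response element core (GAAA, any 2 bases, GAAA) at -213 and matches to the NF-κB consensus at -159 and -103 from the start site.
Cxcl10: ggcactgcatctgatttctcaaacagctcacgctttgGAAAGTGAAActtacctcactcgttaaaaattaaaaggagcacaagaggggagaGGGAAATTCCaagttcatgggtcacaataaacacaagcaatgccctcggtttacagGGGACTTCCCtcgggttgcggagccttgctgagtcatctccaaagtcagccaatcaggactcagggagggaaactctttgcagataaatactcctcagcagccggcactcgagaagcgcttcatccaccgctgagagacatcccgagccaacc
On either strand, the NF-κB consensus was in 9 of 48 windows of the 41 genes and in 4.51% of 32851 promoters, and the response element core in 3 of 48 and 3.44%. The interferon gamma motif TTCCNGGAA was in 0 of 48 windows and in 1.15% of promoters. Of the 9 genes that were higher in the NASH liver 6 had a window, and among these Cxcl10 was the only one with the NF-κB consensus. A match describes the letters of a window and is not evidence of binding.

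Cxcl1, an attractant of neutrophils, was at 28.8 FPKM in the EV low dose liver, 34.1 in the EV high dose liver, 22.9 in the NASH liver and 8.64 in the control liver. Its log2 ratio of NASH over control was 0.76, and 1.31 as deposited. The neighbouring genes Cxcl2 and Cxcl3 encode attractants of the same kind, and the stretches of their promoters are shown beside that of Cxcl1 because all 3 held the same NF-κB match. Capitals mark the run covered by matches on both strands, which overlap. The stretches are chr5:90891149-90891208, chr5:90903777-90903836 and chr5:90786003-90786062, all on the plus strand, and the runs begin at -71, -97 and -73 from the start sites of Cxcl1, Cxcl2 and Cxcl3.
Cxcl1: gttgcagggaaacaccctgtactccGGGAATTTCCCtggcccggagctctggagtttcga
Cxcl2: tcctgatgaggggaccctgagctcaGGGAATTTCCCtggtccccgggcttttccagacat
Cxcl3: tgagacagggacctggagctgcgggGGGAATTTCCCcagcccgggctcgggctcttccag
With these same letters the levels differed widely. Cxcl2 was at 1.15 FPKM in the NASH liver and 0.116 in the control liver, and Cxcl3 was listed at 0 in each of the 4 livers. Cxcl5, the further neutrophil attractant of the same run of genes, was at 0.355 FPKM or less.

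Cxcl14, a chemokine of epithelia and stroma, was at 1.44, 1.64 and 2.51 FPKM in the EV low dose, EV high dose and NASH livers and at 0.177 FPKM in control (log2 ratio of NASH over control 1.02). In the other direction, Ccl27a, known as a skin chemokine that attracts T cells, was at 1.49, 2.11 and 1.62 FPKM in the same livers and at 4.76 FPKM in control (log2 ratio -1.69). Ccl27a overlaps Il11ra1 only at chr4:41769467-41769473. Il11ra1 was at 11.2 FPKM in the NASH liver and 13.6 in the control liver, and reads of the pair may not be fully apart there. Ccl25, known for drawing lymphocytes to the small intestine, was at 0.487 FPKM in the NASH liver and 1.30 in the control liver (log2 ratio -1.18). Among the livers it reached 1 FPKM only in control, and as deposited the ratio was inside 2-fold. Over control it was also inside 2-fold with the low dose (-0.79) and the high dose (-0.89). Ccl25 overlaps the non-coding gene LOC108167518, at 1.05 FPKM in the NASH liver and 0.647 in control, so their reads may not be fully apart.

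**Figure D2:**
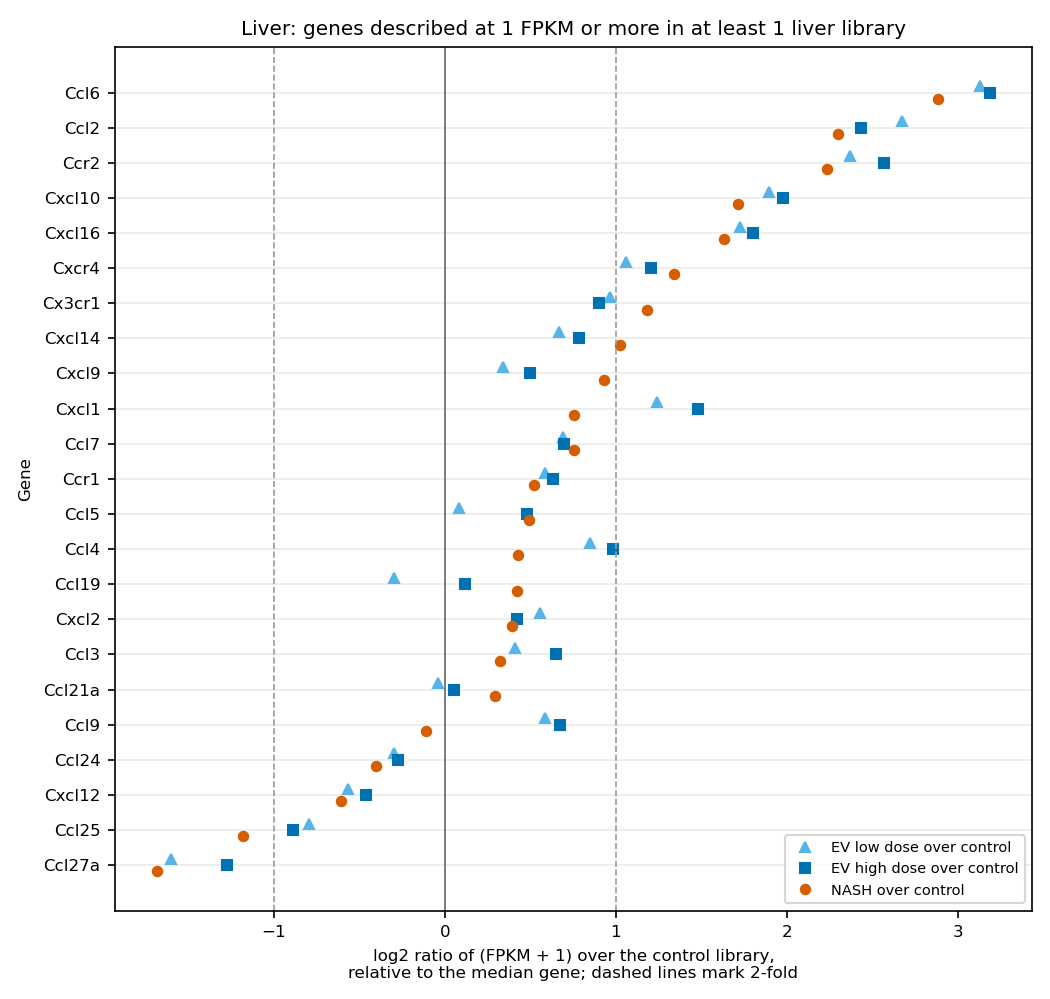
Log2 ratios of (FPKM + 1) over the control liver, relative to the median gene, for genes described that were kept in liver, with a triangle for EV low dose, a square for EV high dose and a circle for NASH. Ccl6 stood highest in the 3 comparisons, at 2.89 for NASH, and Ccl27a lowest, at -1.69 for NASH.

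Genes through which chemokine receptors signal, or which brake them, were taken as a list. Of 30 listed signalling genes 29 were kept in liver, and in the NASH library 11 were 2-fold or more higher and 0 lower than in control, where 7.21% of all genes kept were higher and 7.66% lower. Their median log2 ratio was 0.89, and that of protein-coding genes was 0.03. Itgb2, the integrin chain of leukocyte adhesion, was at 19.1 FPKM in the NASH liver and 1.42 in the control liver (log2 ratio 2.50). Rgs1, which damps receptor signals, was at 12.4 FPKM in the NASH liver and 1.39 in the control liver (log2 ratio 1.93). Dock2, which activates Rac, had a log2 ratio of 1.57. Some of the higher genes, Dock2 among them, were under 1 FPKM in the control liver. They were kept only through the NASH-model libraries, so the background share is not a like-for-like measure. Of 6 atypical and other chemokine receptors 1 was kept in liver, Ccrl2, at 2.41 FPKM in the NASH liver and 0.681 in the control liver (log2 ratio 0.47). Pf4, a platelet and macrophage chemokine outside the naming rule, was at 4.35 FPKM in the NASH liver and 0.776 in control (log2 ratio 1.04).

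Against the NASH liver, 0 of the 24 genes were 2-fold apart in the EV low dose liver, where 0.443% of all genes kept were higher and 0.225% lower (0.292% and 0.106% of protein-coding genes). In the EV high dose liver the count was also 0, against 0.816% higher and 0.373% lower among all genes (0.618% and 0.265% of protein-coding genes). With background shares this small, 0 of 24 cannot be told from the background. The log2 ratios ran from -0.75 to 0.67 with the low dose and from -0.47 to 0.75 with the high dose. Against control, 8 genes were higher in each EV liver (6.50% of all genes were with the low dose and 6.28% with the high dose), among them Ccl2, Ccl6, Ccr2, Cxcl1, Cxcl10, Cxcl16 and Cxcr4 in both. Ccl27a was lower in both, where 5.69% and 5.14% of all genes were lower. These comparisons share the control library with that of NASH over control. Of the higher genes named, Ccl2, Ccr2, Cxcl10 and Cxcr4 were under 1 FPKM in the control liver. They were kept only through the NASH-model libraries, so the background shares over control are not a like-for-like measure.

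The widest steps from NASH in both EV livers were in ligands. Ccl9 had log2 ratios of 0.67 with the low dose and 0.75 with the high dose over NASH, and Cxcl1 had 0.46 and 0.69. Cxcl9 stood at -0.62 and -0.47. Ccl19, a ligand of Ccr7 in lymphoid tissue that was singled out after its values were seen, was at 0.343, 0.785 and 1.48 FPKM in the EV low dose, EV high dose and NASH livers. The receptor Ccr2 had log2 ratios of 0.11 and 0.29 over NASH, of which the low dose value was -0.03 as deposited. Beside the higher Cxcl1, neutrophil markers summed to 19.9 FPKM in the EV low dose liver and 20.6 in the EV high dose liver. In the NASH liver they summed to 70.6 FPKM, most of it S100a8 at 26.7 and S100a9 at 33.2. At either dose 4 of 6 kept markers were 2-fold or more lower. Of all genes kept 0.225% were lower with the low dose and 0.373% with the high dose. Of these 4 markers, Camp and Ngp reached 1 FPKM only in the NASH liver, the library where they were high.

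The EV high dose and EV low dose livers differed little in these genes. None of the 24 were 2-fold apart, against 0.303% higher and 0.163% lower of all genes (0.221% and 0.0618% of protein-coding genes), and log2 ratios of high over low dose lay between -0.25 and 0.41. The highest was Ccl19 and the lowest was Ccl2, at 8.31 FPKM with the high dose and 10.1 with the low dose.

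Some genes that were higher in the NASH liver, such as Cxcl10, did not reach 1 FPKM in any colon library and had no ratio there. Those that were kept in colon were all inside 2-fold between NASH and control. Ccl2, under 1 FPKM in both of these libraries, had an FPKM quotient of NASH over control of 0.41, past 2-fold without the pseudocount. Of 29 genes kept, 0 were 2-fold or more higher in the NASH colon than in the control colon and 1, Ccl20, was lower. Among the 15245 genes kept in colon 2.43% were higher and 1.97% lower (2.16% and 1.49% of protein-coding genes), so 1 of 29 (3.45%) is close to the background. Ccr2 was at 1.56 FPKM in the NASH colon and 1.61 in the control colon and Cxcr4 at 3.19 FPKM in NASH and 3.37 in control. Ptprc was at 8.44, 7.56 and 7.03 FPKM in the EV low dose, EV high dose and NASH colons and at 7.65 FPKM in the control colon. Colon log2 ratios are as deposited, since the median gene lay between -0.06 and 0.08 in the 4 comparisons.

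Ccl20, which follicle epithelium makes to draw Ccr6-bearing B cells and dendritic cells, was at 2.84 FPKM in the EV low dose colon, 1.55 in the EV high dose colon, 3.14 in the NASH colon and 7.66 in the control colon. The control library stood above the 3 others, with a log2 ratio of NASH over control of -1.07 (-0.98 with libraries scaled to the same protein-coding sum). Over control, the log2 ratio was -1.17 with the low dose and -1.76 with the high dose, and Ccl20 was the only one of the 29 genes 2-fold lower than control in either EV colon (1.74% and 1.27% of all genes were). Ccr6 was at 0.768 FPKM in the NASH colon and 0.411 in the control colon. The Ccl20 promoter is shown as this gene had the lowest ratio in colon, with capitals on its NF-κB match, which begins at -80 in chr1:83116661-83116720 on the plus strand.
Ccl20: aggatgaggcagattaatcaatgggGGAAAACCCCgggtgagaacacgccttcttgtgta

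Ccl28, made by colon epithelium, also stood highest in the control colon. It was at 13.9, 16.2 and 19.8 FPKM in the EV low dose, EV high dose and NASH colons and at 25.2 FPKM in the control colon, a log2 ratio of NASH over control of -0.34. Ccr10, its receptor on IgA plasma cells, was at 1.12 FPKM or less, and it overlaps Cntnap1 in the annotation. The plasma cell gene Jchain was at 418, 303 and 168 FPKM in the EV low dose, EV high dose and NASH colons and at 315 FPKM in control, an order that differed from that of Ccl28.

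Cxcl13 and Ccl11 were the reverse, with the control colon lowest. Cxcl13, which draws B cells into follicles, was at 7.75, 7.93 and 7.43 FPKM in the EV low dose, EV high dose and NASH colons and at 3.93 FPKM in control (log2 ratio of NASH over control 0.77). Its receptor Cxcr5 was at 0.728 FPKM or less. Ccl11, the attractant of eosinophils, was at 11.8, 12.8 and 9.92 FPKM in the same colons and at 5.81 FPKM in control (log2 ratio of NASH over control 0.68). For EV high dose over control the log2 ratio of Ccl11 was 1.02, and it was the only one of the 29 higher there (1.33% of all genes were), with 0 higher at the low dose (1.15%). The B cell markers summed to 14.1, 15.1 and 12.9 FPKM in the EV low dose, EV high dose and NASH colons and to 12.7 FPKM in control, with 0 of 4 kept markers 2-fold apart between NASH and control.

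The Ccr2 ligands Ccl2, Ccl7 and Ccl12 had another order in colon, with the NASH library lowest. Ccr2 itself did not share it, at 1.92 FPKM in the EV low dose, 1.55 in the EV high dose, 1.56 in the NASH and 1.61 in the control colon. Ccl12, a mouse ligand of Ccr2, was at 2.86 FPKM in the EV low dose colon, 2.38 in the EV high dose colon, 0.439 in the NASH colon and 1.32 in the control colon. Its log2 ratio over NASH was 1.42 with the low dose and 1.23 with the high dose. It was the only gene of the 29 that was 2-fold higher in either EV colon than in the NASH colon, against 0.905% of all genes kept with the low dose (0.391% of protein-coding genes) and 1.10% with the high dose (0.524%). None of the 29 were lower, against 1.95% with the low dose (1.45% of protein-coding genes) and 1.43% with the high dose (1.07%).

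Ccl2 and Ccl7 had the same order, but both reached 1 FPKM only in the 2 EV colons and so were kept through the libraries where they were high. Over NASH the log2 ratios with the low and high dose were 0.74 and 0.64 for Ccl2 and 0.87 and 0.72 for Ccl7, all inside 2-fold. Ccl2 was at 1.16, 1.02 and 0.295 FPKM in the EV low dose, EV high dose and NASH colons and at 0.719 FPKM in the control colon. Ccl7 was at 1.53, 1.27 and 0.385 FPKM in those colons and at 0.701 FPKM in control. Summed over these 3 ligands, the level was 5.55 FPKM in the EV low dose colon, 4.67 in the EV high dose colon, 1.12 in the NASH colon and 2.74 in the control colon. Ccl8, a macrophage chemokine of the same run of genes on chromosome 11, was at 9.38, 6.40 and 4.23 FPKM in the EV low dose, EV high dose and NASH colons and at 6.99 FPKM in control.

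Macrophage markers followed this order in part. The monocyte gene Ly6c2 was at 28.8, 14.9 and 8.66 FPKM in the EV low dose, EV high dose and NASH colons and at 13.6 FPKM in control. Mrc1, at 7.88, 6.22, 4.96 and 6.11 FPKM in the EV low dose, EV high dose, NASH and control colons, followed it too. Cd14 did as well, at 14.5, 12.8, 11.7 and 12.7 FPKM in the same libraries. Adgre1, the macrophage marker F4/80, was at 5.99, 4.45, 3.13 and 5.12 FPKM there, lowest in NASH but with control above the high dose. Csf1r and Lyz2 were also lowest in the NASH colon, with control above the high dose. Cd68 and Itgam did not follow it and were lowest in control. In the EV low dose, EV high dose, NASH and control colons Cd68 was at 4.44, 3.69, 3.37 and 3.03 FPKM and Itgam at 1.56, 1.48, 1.57 and 1.21 FPKM. Summed over 8 macrophage markers, the level was 209 FPKM in the EV low dose colon and 150 in the EV high dose colon. It was 135 FPKM in the NASH colon and 160 in control, and Lyz2 alone made up most of each sum. The part of macrophages in the Ccr2 ligand values, and that of the seminal vesicle RNA in the NASH colon library, was not tested. With libraries scaled to the same protein-coding sum, the log2 ratio of Ccl12 over NASH was 1.32 with the low dose and 1.22 with the high dose, and with a pseudocount of 5 FPKM it was 0.53 and 0.44.

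**Figure D3:**
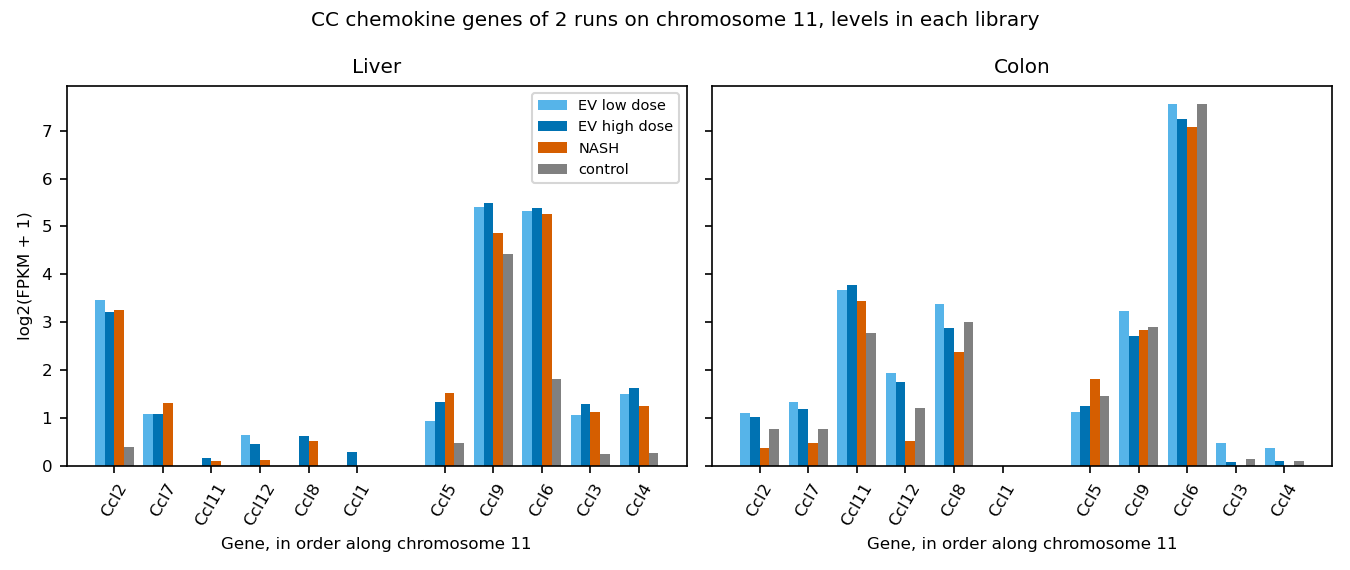
Levels on a log2(FPKM + 1) scale of CC chemokine genes in their order along chromosome 11, in liver on the left and colon on the right, with bars for the EV low dose, EV high dose, NASH and control libraries. In colon the NASH bar was the lowest of the 4 for Ccl2, Ccl7, Ccl12 and Ccl8, while in liver Ccl2 and Ccl6 were lowest in control.

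Ccl6, Ccl21a and Cxcl12 made up most of the rest of the colon ligands. Ccl6 was at 187, 151 and 135 FPKM in the EV low dose, EV high dose and NASH colons and at 186 FPKM in control, a log2 ratio of NASH over control of -0.46, the other way from its ratio in liver. The difference between the tissues was not tested. Ccl21a, the lymphoid ligand of Ccr7, was at 37.4, 35.5 and 34.6 FPKM in those colons and at 34.6 FPKM in control, and the near copies Ccl21b and Ccl21d lay between 3.48 and 4.77 FPKM. Reads of these copies may be divided among them. Cxcl12 was at 10.1, 14.8 and 18.7 FPKM in the EV low dose, EV high dose and NASH colons and at 14.5 FPKM in control, with a log2 ratio of EV low dose over NASH of -0.82. Cx3cl1, which colon epithelium and endothelium make, was at 12.7, 15.1 and 16.5 FPKM in the same colons and at 11.2 FPKM in control.

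The EV high dose and EV low dose colons were 2-fold apart in 1 gene of 29, Xcl1, which was lower with the high dose (0.682% of all genes were lower and 0.872% higher, or 0.337% and 0.438% of protein-coding genes). Xcl1, the attractant of cross-presenting dendritic cells made by NK and T cells, was at 0.469 FPKM in the EV high dose colon and 2.17 in the EV low dose colon, with 1.36 in the NASH colon and 0.828 in the control colon (log2 ratio of high over low dose -1.11). Of 5 NK cell markers 1 was kept in colon, the granule protease Gzma, at 0.334 FPKM in the EV high dose colon and 1.93 in the EV low dose colon, while the NK cell receptor Klrb1c was at 0.394 and 0.334 FPKM in these libraries. The 8 T cell markers summed to 5.66 FPKM with the high dose and 7.91 FPKM with the low dose, with 0 of 3 kept markers 2-fold apart, and Cd3e, a chain of the T cell receptor complex, was at 0.376 and 0.205 FPKM. Their part in the Xcl1 values was not tested. Cxcl16 was at 7.33 FPKM with the high dose and 11.2 FPKM with the low dose, against 7.12 FPKM in NASH and 6.70 FPKM in control.

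Of the signalling list 26 genes were kept in colon, of which 0 were 2-fold apart in any of the 4 colon comparisons. Among all genes kept in colon 0.682% to 2.43% were 2-fold apart in one direction in a comparison, so that 0 of 26 cannot be told from the background. The median log2 ratio of NASH over control was 0.16. Of the 6 atypical and other chemokine receptors 4 were kept in colon, with 0 of them 2-fold apart in those comparisons. Ackr4, which clears Ccl19, Ccl21 and Ccl25, was at 5.15, 4.44 and 4.33 FPKM in the EV low dose, EV high dose and NASH colons and at 2.70 FPKM in control.

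**Figure D4:**
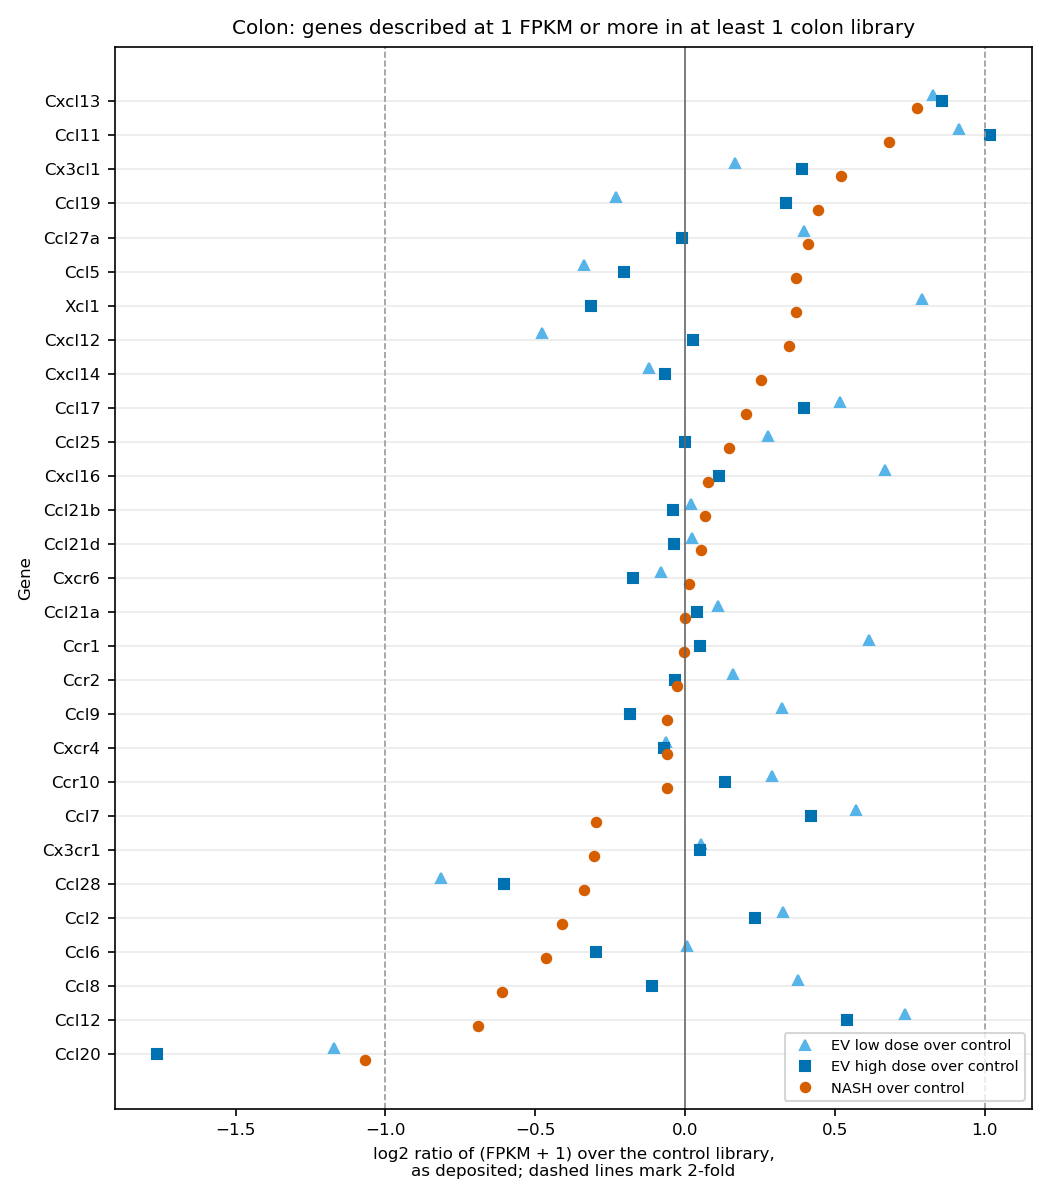
Log2 ratios of (FPKM + 1) over the control colon, as deposited, for the 29 genes kept in colon, with symbols as for liver. Ccl20 lay left of the 2-fold line in the 3 comparisons, while Ccl2, Ccl7 and Ccl12 lay left of 0 for NASH and right of 0 for both EV doses.

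Between the tissues, libraries of the same group were compared relative to the median gene, which stood between -0.84 and -0.43 for liver over colon. Of the 37 genes that reached 1 FPKM in any library, 7 were 2-fold or more higher in liver than in colon in each of the 4 groups, where 10.5% of 16284 genes were. They included Ccl4, Ccl9, Ccl24, Cxcl1, Cxcl9 and Cxcl12. Another 8 were lower in liver in each group (9.95% of all genes were), namely Ccl6, Ccl8, Ccl11, Ccl21a, Ccl21b, Ccl21d, Ccl28 and Cx3cl1.

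Some genes had a tissue difference in NASH-model animals that the control pair lacked at this size. Ccr2 was 2.33 log2 units higher in the liver than in the colon of the NASH group and -0.09 in the control group, and Ccl2 was 3.32 and 0.46. Cxcl16 stood at 1.61 in the NASH group and -0.10 in the control group. Ccl6 was lower in liver in both, at -1.40 in the NASH group and -4.90 in the control group. These liver-over-colon values restate the within-liver differences and are not a separate support for them.

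Of the 18 genes under 1 FPKM in every library, Ccl26 and Cxcl15 were listed at 0 in all 8. The others reached between 0.0499 FPKM (Cxcl3) and 0.851 FPKM (Ccr7) in their highest library, and at such levels a listed 0 does not show that a gene is silent.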

How the data were processed

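The authors deposited FPKM for 8 libraries in 1 table, under NCBI gene identifiers. Trimmomatic 0.38, HISAT2, StringTie and the mm10 build are named per the submitters' processing notes, without roles, other versions or an annotation. RNA was extracted with TRIzol and RNeasy Plus and sequenced from TruSeq Stranded Total RNA Gold libraries, per the labels' protocols. Symbols and coordinates came from RefSeq GRCm38.p6 (mm10), which matched 45679 of 45777 identifiers. Read depth is unknown. The commonest ratio of values under 0.15 FPKM, shared by 25 to 48 genes a pair, put the depth at 0.683 to 0.901 times control in the other livers and 0.918 to 1.19 times control in the other colons. Log2 ratios used a pseudocount of 1 FPKM, and a gene was kept at 1 FPKM in at least 1 library of its tissue. The members and lists were chosen with earlier results of these data known. Values in each library are given for genes at 5 FPKM or more, or 2-fold apart and at 2 FPKM in one of the libraries compared, and others mainly as ranges. Of each pathway or marker list, at most 4 genes with the largest ratios are named. Ccl7, Ccl19, Ccl25, Ccr1, Ccr6, Cxcl2, Ptprc, Gzma, Klrb1c, Cd3e, Cd14, Cd68, Csf1r, Csf3r, Itgam, Lyz2, Mrc1, Cxcl11 and Ccl19-ps1 fall outside these rules and were chosen after their values were seen. The scaling was checked on simulated data with small noise, in which only genes at 5 FPKM or more in control were given a 4-fold difference. Of these 100% were called, and 0% of the others, over 11363 genes in liver and 14962 in colon. With a 2-fold line that outcome was nearly fixed in advance. Both simulations were centred on the median gene, while the colon ratios were not. The check gives no error rate for the calls, which rest on 1 library per group and in part on genes under 1 FPKM. No library was left out, and some genes, part of which enter the counts and sums, are not reported here. Python 3.11.15, numpy 2.4.6, pandas 2.3.3 and matplotlib 3.10.9 were used.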

Additional observations from a re-analysis of the deposited data

How the results depend on the processing

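No paired analysis was possible because each group had 1 library per tissue, and for the same reason leaving out a replicate could not be done. Liver NASH over control: 9 genes were higher and 2 lower, against 17 higher with a pseudocount of 0.1 FPKM, 4 and 0 with 5 FPKM, 14 and 1 as deposited, 17 and 0 with same-sum scaling, 1 lower with median-of-ratios scaling, 0 lower with a filter at 5 FPKM, and 1 lower with either EV library in place of NASH, an alternative chosen after seeing the data. Liver EV low dose over NASH had 1 lower gene with 0.1 FPKM in place of 0. Colon NASH over control (0 higher, 1 lower) had 3 lower with 0.1 FPKM, 0 with 5 FPKM and 0 with same-sum scaling, and 1 higher with the EV high dose library in place of NASH. Colon EV low dose over NASH (1 higher, 0 lower) had 4 and 2 with 0.1 FPKM, 0 higher with 5 FPKM or a filter at 5 FPKM, 2 higher relative to the median gene or by median-of-ratios, and 1 lower with same-sum scaling. Colon EV high dose over NASH (1 and 0) had 3 and 1 with 0.1 FPKM, and 0 higher with 5 FPKM or a filter at 5 FPKM. Colon EV high over EV low dose (0 and 1) had 1 higher with 0.1 FPKM, and 0 lower with 5 FPKM or a filter at 5 FPKM. Liver over colon (7 and 8) had 3 and 4 with 5 FPKM, 4 higher as deposited and 3 higher with same-sum scaling. The cause was not tested. A pseudocount of 5 FPKM shrinks ratios of low genes by construction, and a filter at 5 FPKM leaves 10 genes in liver and 12 in colon. Of the values of single genes under these alternatives, 26 crossed the 2-fold line and 878 did not, and none that was past it changed sign. These values cover only genes at 5 FPKM or more, or 2-fold apart and at 2 FPKM in one of the libraries compared. Lower genes, such as Ccl25, were not counted, so the figures do not describe all the genes kept.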

Other observations

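Rows of chemokine genes that the table does not call protein-coding were low. Cxcl11, a transcribed pseudogene in this table, was at 0.491, 0.476 and 0.353 FPKM in the EV low dose, EV high dose and NASH livers and at 0.401 FPKM in the control liver. The Ccl19 pseudogene Ccl19-ps1 was at 0.267 FPKM in the NASH liver and listed at 0 in the control liver.

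Among genes that cut or shed chemokines, Adam10, a sheddase of Cxcl16 and Cx3cl1, was at 16.5, 15.6 and 17.4 FPKM in the EV low dose, EV high dose and NASH livers and at 4.68 FPKM in the control liver. Dpp4, which trims several chemokines, was at 33.2, 36.0 and 28.9 FPKM in those livers and at 21.1 FPKM in control. Mmp12, a macrophage protease that also cuts chemokines, was at 46.9 FPKM in the EV high dose liver, 30.1 in the NASH liver and 0.0526 in the control liver.

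Ly6g, listed as a neutrophil marker, was at 68.8 FPKM in the NASH colon and 23.6 FPKM in the control colon, while S100a8 was at 1.36 FPKM or less in each colon library. In liver Ly6g was at 0.0680 FPKM or less, where S100a8 reached 26.7 FPKM in the NASH library.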
